A study of Mus musculus with 6 samples.

Results

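The genes described here are 9 transcripts that mark GABAergic interneurons, the local inhibitory neurons of the hippocampus: Gad1, Gad2, Slc32a1, Pvalb, Sst, Npy, Cck, Calb2 and Reln. They were found by symbol among the 18193 genes of the platform annotation, which gives them 15 of the 45037 probe sets that are not array controls. A probe set is the group of short probes that reads one stretch of a transcript. No probe set with several symbols held a member. The arrays measured RNA from mouse hippocampus in 3 groups. RNA recovered with myc-tagged transgenic HuD on anti-myc protein-G beads was read on 3 arrays, RNA on protein-G beads with non-immune IgG on 2 arrays, and the total input RNA on 1 array. The labels used here give no strain, age, promoter of the transgene, or number of animals, and they do not say which animals the IgG and input RNA came from.

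Interneurons make GABA from glutamate with the decarboxylases encoded by Gad1 and Gad2, and load it into synaptic vesicles with the transporter encoded by Slc32a1. Their classes are told apart by calcium-binding proteins such as parvalbumin (Pvalb) and calretinin (Calb2), by peptides such as somatostatin (Sst), neuropeptide Y (Npy) and cholecystokinin (Cck), and by the secreted glycoprotein reelin (Reln). Cck and Npy are not limited to interneurons in the hippocampus. The RNA-binding protein HuD is made in neurons from Elavl4, attaches to U-rich stretches, mostly in the 3′ untranslated region, and stabilises many of its target mRNAs. The comparison of HuD with IgG beads asks which of these mRNAs took a larger or smaller share of the signal with HuD than on control beads, and the comparisons with the input set both against the RNA that went in.

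Signals are intensities on a linear scale that had already been scaled to a common level on every array, so a value is a share of the array and not an amount. Higher and lower therefore refer to an RNA's place among all others on its array. A difference between pulldowns concerns the RNA recovered on the beads. Because the tissue was bulk, the signals do not say which cells an RNA came from. In the input, few cells of a type and little RNA per cell cannot be told apart. Log2 differences are on the scale log2(signal + 32), which understates the change of dim probe sets, and are given with their standard error. A probe set is called when its limma p-value, adjusted by Benjamini-Hochberg over all 45037 probe sets, is under 0.05. Detection calls were not among the values used here, so whether a dim probe set read its transcript at all is not known.

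Of the 15 probe sets, 11 had a mean log2 signal at or above the median of all probe sets, here called the brighter probe sets, and 4 did not. Every gene had 1 clearly bright probe set, and these 9 carry the results. With HuD, the bright probe sets of Slc32a1, Gad1, Sst, Npy and Cck fell to between 25.3% and 37.4% of the mean IgG signal, and that of Pvalb rose to 278% of it. Those of Gad2, Calb2 and Reln did not pass the test. Among all 15 member probe sets, 5 were called lower and 1 higher with HuD than with IgG. Of all probe sets tested, 8.70% were called lower and 5.73% higher (14.4% either way), and of the brighter probe sets 15.2% and 11.1% (26.3% either way). The median log2 difference of the 9 bright probe sets was −1.32, and that of all 15 member probe sets −0.18, against −0.26 for the brighter and −0.08 for all probe sets. Without HuD array 1 the counts of members were 1 lower and 0 higher, without HuD array 2 they were 2 and 0, without HuD array 3 1 and 0, without IgG array 1 5 and 0, and without IgG array 2 2 and 1. Over all probe sets, 39.7% of the calls were higher with the deposited scaling, 53.5% after quantile normalization, 76.7% with arrays centred on their 75th percentile and 53.3% with centring on the median. The 6 called members kept their direction under each of these scalings.

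**Figure D1:**
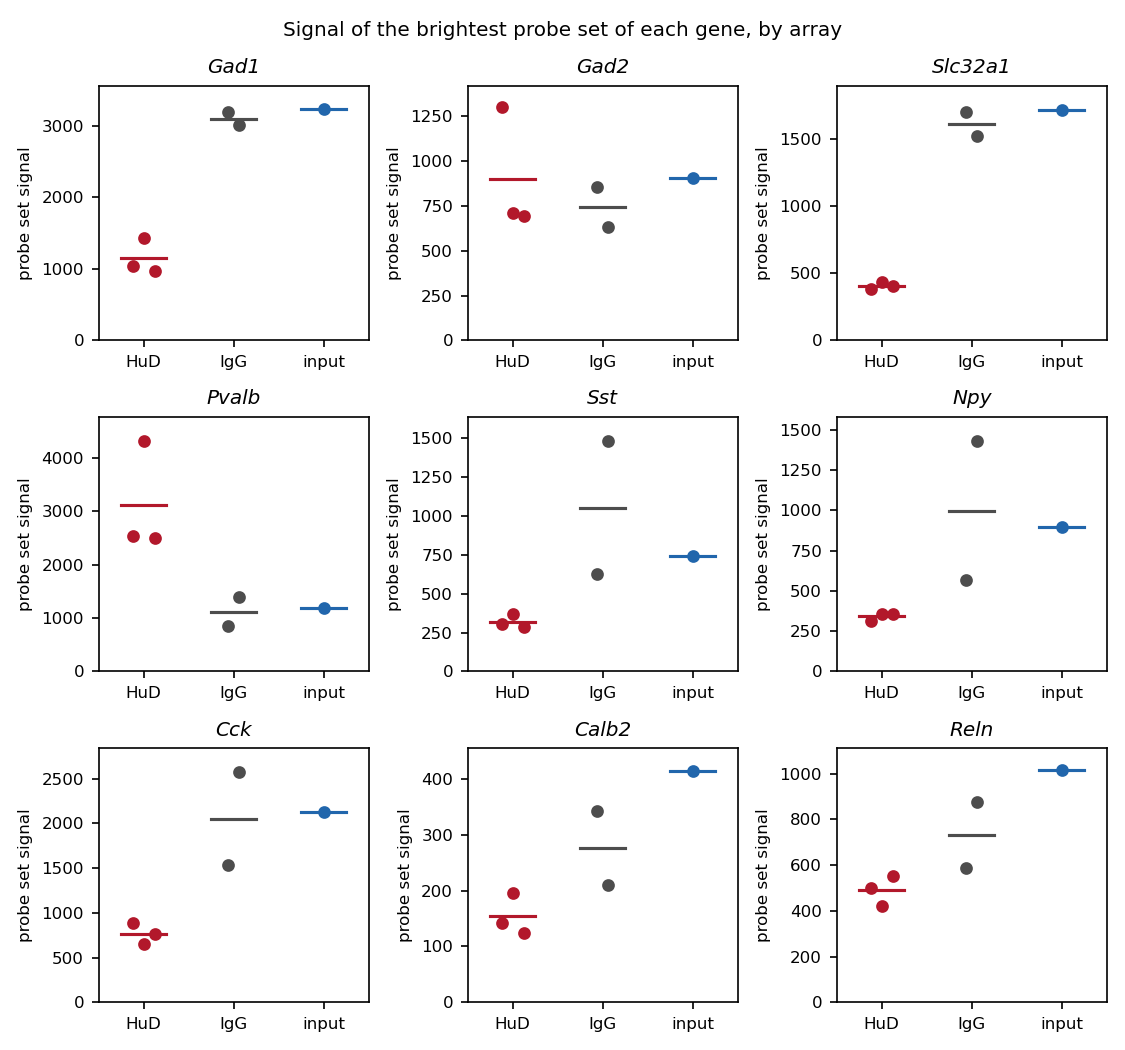
Signal (linear scale, from 0) of the brightest probe set of each of the 9 genes, with 1 point per array (3 HuD pulldowns, 2 IgG pulldowns, 1 input) and a line at each group's mean. The HuD points lie below both IgG points for 7 genes, above both for Pvalb, and on both sides of an IgG point for Gad2. Of the brighter probe sets, 40.0% had all HuD signals below and 22.2% all above both IgG signals.

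The pulled-down protein's own mRNA and the tissue were checked on the same arrays. All 3 probe sets of Elavl4 were called higher with HuD than with IgG (log2 differences 2.13, 1.23 and 1.46), and how much of this signal comes from the transgene was not tested. Pearson correlations across the brighter probe sets, which are not independent, were 0.967 to 0.981 between HuD arrays and 0.936 between the IgG arrays. Among the excitatory neuron genes the input read 1356 for Camk2a, 778 for Wfs1, 717 for Neurod6, 211 for Neurod2, 175 for Slc17a7 and 169 for Zbtb20. Prox1, a marker of dentate granule cells, was at 9.80, and whether so dim a probe set read its transcript is not known. Markers of other cell types differed in how they compared between HuD and IgG. Summed over 5 astrocyte markers the signal was 5576 to 6853 with HuD, 12373 to 13415 with IgG and 11863 in the input, with 2 of 5 called lower than with IgG. Over 5 microglia markers it was 1382 to 1897, 2747 to 4438 and 4202, also with 2 of 5 called lower. The 7 excitatory neuron markers summed to 2421 to 3972, 4272 to 4956 and 3416. Of these, Neurod2 was called higher (log2 difference 0.83) and Zbtb20 lower (−1.59). Camk2a, which gave 1356 of the input sum, was at −0.97 and Neurod6 at 0.46, neither called. Sums over 4 oligodendrocyte markers were 9204 to 13271, 13663 to 20669 and 12265 (0 called by limma, and 3 lower at an unadjusted p under 0.05). Of all probe sets, 28.9% had an unadjusted limma p under 0.05 in either direction. Sums over 3 endothelial markers were 60.7 to 77.3, 165 to 247 and 144 (1 called lower), and over 3 choroid plexus markers 12205 to 15308, 16264 to 18623 and 9409 (0 called by limma, and 0 at an unadjusted p under 0.05). Single genes made up most of some sums: in the input Ttr gave 8913 of the choroid plexus sum and Mbp 9266 of the oligodendrocyte sum. Ttr had a HuD mean of 13774, above the input. The HuD means of Kcnj13 and Clic6 (90.7 and 229) were below their input signals (218 and 278). Among the probe sets summed, Pecam1 was the lowest in the input at 2.27, and whether so dim a signal read the transcript is not known. The part of these other cell types in the results on the interneuron genes was not tested.

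Among the genes of GABA synthesis and vesicle loading, Slc32a1 and Gad1 fell and Gad2 was not called. Slc32a1, the vesicular GABA transporter, gave signals of 381, 434 and 408 on the HuD arrays, 1703 and 1524 on the IgG arrays and 1717 in the input (probe set 1422756_at). The HuD arrays were close to one another and far below the rest, and the IgG arrays lay near the input. Its log2 difference between HuD and IgG was −1.90 ± 0.21 (adjusted p = 0.00355), a 3.74-fold fall whose call stood whichever 1 of the 5 pulldown arrays was left out. The other probe sets of Slc32a1 were dim on nearly all arrays, at 3.43 to 26.3 for 1456457_at, 1.08 to 29.6 for 1447574_s_at and 0.615 to 1.61 for 1447573_at. None of them passed the test, and with all probe sets of the gene averaged its difference was −0.36 and was not called.

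Gad1 encodes the decarboxylase that makes most of the GABA in neuronal cell bodies. Its bright probe set (1416561_at) read 1041, 1429 and 967 on the HuD arrays, 3193 and 3008 on the IgG arrays and 3234 in the input. All HuD signals were below all others, and the IgG arrays again lay next to the input. The fall was 2.70-fold (log2 difference −1.43 ± 0.25, adjusted p = 0.0105). This call was lost without HuD array 1 (−1.37, adjusted p = 0.0781) or HuD array 3 (−1.32, adjusted p = 0.0691), and when both probe sets of Gad1 were averaged (−0.80). The second probe set (1416562_at) read 35.0, 19.3 and 3.97 with HuD, 56.3 and 3.88 with IgG and 111 in the input. Its groups overlapped, and it was not called (−0.18 ± 0.43).

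Gad2 encodes the decarboxylase found mainly in axon terminals, and it did not pass the test. Its bright probe set (1429589_at) gave 1302, 709.8 and 692 on the HuD arrays, 854 and 631 on the IgG arrays and 907 in the input. HuD array 1 was the highest of all arrays, and the other HuD signals lay between those of the IgG arrays. The log2 difference was 0.22 ± 0.32 (adjusted p = 0.705), and without HuD array 1 it was −0.07. The second probe set of Gad2 (1421978_at) stayed between 20.6 and 35.7 on all arrays and was not called either (−0.18 ± 0.25). The log2 changes of Gad2 and Gad1 were 1.65 apart, a pair chosen after their values were seen. With 3 against 2 arrays an exact permutation test of such a difference cannot go below p = 0.1, so it could not pass the threshold.

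Pvalb, which encodes the calcium buffer of fast-spiking basket and axo-axonic cells, was the one member called higher. It gave 2535, 4317 and 2494 on the HuD arrays, 849.5 and 1392 on the IgG arrays and 1191 in the input (1417653_at, its only probe set). All HuD arrays exceeded the others, so leaving out 1 array could not change the direction. HuD array 2 was far above the remaining HuD arrays. The rise was 2.72-fold against IgG (log2 difference 1.44 ± 0.33, adjusted p = 0.0251). It kept its direction whichever 1 pulldown array was left out, between 1.10 and 1.79, but passed the test in only 1 of these 5 fits, that without IgG array 2. The lowest value was that without IgG array 1 (adjusted p = 0.128). Under the other scalings of the arrays it was called each time.

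The 3 peptide genes among the members, Sst, Npy and Cck, all fell. Sst, the peptide of dendrite-targeting interneurons, read 302, 367 and 287 with HuD, 627 and 1479 with IgG and 744 in the input (1417954_at). The HuD arrays lay close together and below every other array, while the second IgG array read 2.36 times the first. The log2 difference from IgG was −1.52 ± 0.34 (adjusted p = 0.0246). Without IgG array 2 it shrank to −0.92 and was not called (adjusted p = 0.0536).

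Npy, a peptide of neurogliaform and dendrite-targeting cells, read 315, 359 and 355 with HuD, 565 and 1430.4 with IgG and 896 in the input (1419127_at). The HuD arrays differed little, and the second IgG array stood at 2.53 times the first. Its fall was 2.49-fold (−1.32 ± 0.36, adjusted p = 0.0441), and without IgG array 2 it was −0.67 (adjusted p = 0.0926). Quantile normalization, a larger pseudocount and a fit without a variance trend each took this call away, with log2 differences of −1.28, −1.14 and −1.32.

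Cck, the peptide of a further class of basket cells, gave 889, 652 and 764 on the HuD arrays, 1529 and 2577 on the IgG arrays and 2129 in the input (1419473_a_at). The HuD arrays lay below all others and the input between the IgG arrays. Its fall was 2.54-fold (−1.34 ± 0.28, adjusted p = 0.0187), and −0.97 without IgG array 2 (adjusted p = 0.0542). Sst, Npy and Cck each lost the call when any 1 of the HuD arrays was left out, with differences between −1.61 and −1.24 and adjusted p between 0.0623 and 0.159. Each was called without IgG array 1.

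The IgG arrays disagreed on these 3 peptide genes, with IgG array 2 the higher for each. The log2 difference of IgG array 2 from IgG array 1 was 1.29 for Npy, 1.20 for Sst and 0.74 for Cck. Pvalb, not a peptide gene, was at 0.69, and Gad1 was at −0.09, Slc32a1 at −0.16 and Gad2 at −0.42. Over the brighter probe sets the median of this difference was −0.08 with an SD of 0.60. The titles also carry a suffix of unstated meaning, le1 or e1_le1, which the IgG arrays do not share. Within le1 (1 HuD and 1 IgG array) the HuD to IgG difference was −0.98 for Sst, −0.78 for Npy and −0.76 for Cck. Within e1_le1 (2 HuD arrays and 1 IgG array) it was −2.08, −1.91 and −1.82. For Slc32a1 the values were −2.07 and −1.78, for Gad1 −1.59 and −1.33, and for Pvalb 1.54 and 1.22. The peptide differences were larger within e1_le1. All 6 called genes had the same direction within both suffixes. This was fixed beforehand, as all their HuD signals lay on the same side of both IgG signals.

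**Figure D2:**
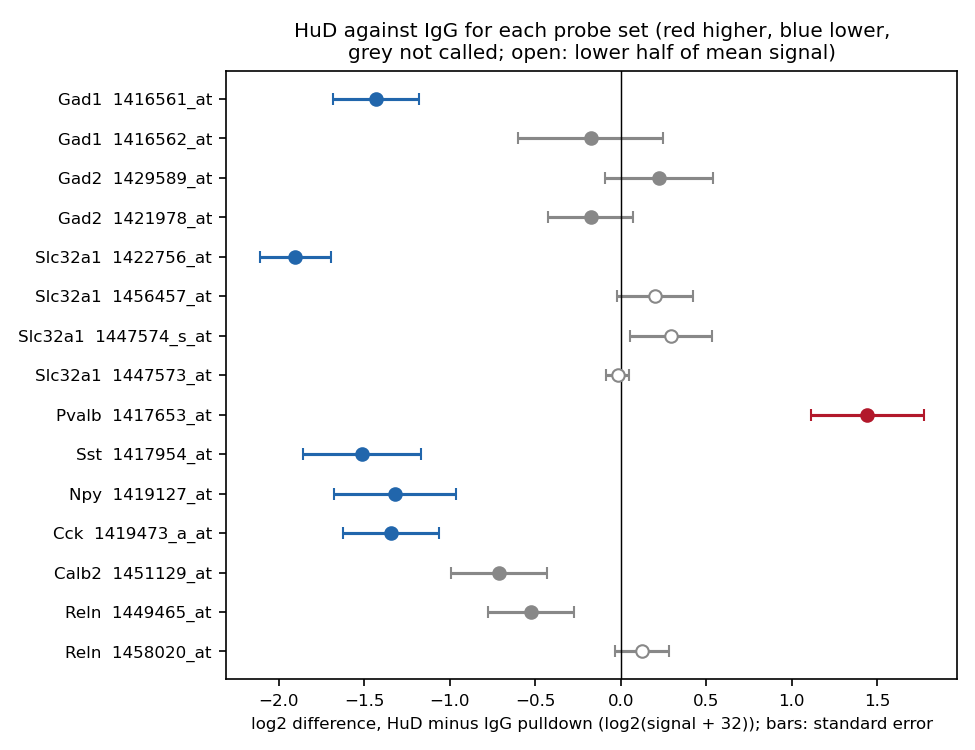
Log2 difference between HuD and IgG pulldowns for all 15 probe sets, with bars for the standard error. Slc32a1, Gad1, Sst, Npy and Cck each have 1 called probe set left of 0 and Pvalb has 1 right of 0, while the further probe sets of Gad1, Gad2, Slc32a1 and Reln lie near 0.

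Calb2 and Reln fell short of the test. Calb2, which encodes calretinin, is a marker of interneurons that contact other interneurons, but which cells its signal came from was not tested. It gave 141, 196 and 125 with HuD, 343 and 209.98 with IgG and 414 in the input (1451129_at). The HuD arrays lay below the IgG arrays, by a narrow gap to the second of these. The difference was −0.71 ± 0.28 (adjusted p = 0.133), or −0.40 without IgG array 1 and −1.03 without IgG array 2.

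Reln encodes reelin, a matrix protein secreted by Cajal-Retzius cells and by a class of interneurons. Its bright probe set (1449465_at) gave 501, 420.5 and 555 with HuD, 586 and 876 with IgG and 1017 in the input. The highest HuD signal was just under the lower IgG signal, so the groups did not overlap, but the difference was small (−0.52 ± 0.25, adjusted p = 0.216), at −0.80 without IgG array 1 and −0.25 without IgG array 2. The second probe set of Reln (1458020_at) lay between 1.07 and 12.5 on all arrays and was not called (0.12 ± 0.16).

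The comparison with the input shares the HuD arrays with the one above and rests on 1 input array, whose spread was taken to equal that of the pulldowns. Slc32a1 (−1.99 ± 0.26, adjusted p = 0.0177) and Gad1 (−1.49 ± 0.32, adjusted p = 0.035) were called lower, and 0 member probe sets were called higher. Over all probe sets 3.21% were called lower and 2.72% higher (5.93% either way), and over the brighter ones 6.18% and 5.44% (11.6%). In limma's test without adjustment, 8 member probe sets were lower and 1 higher at a p under 0.05, against 20.4% of all probe sets in either direction. Both calls were lost when any 1 HuD array was left out or the title suffix was added as a block, and 6 member probe sets were lower without IgG array 1 or without IgG array 2. Of the calls over all probe sets 45.9% were higher, against 77.8% with 75th percentile centring and 33.4% with median centring. Cck (−1.44 ± 0.36, adjusted p = 0.0543), Calb2 (−1.28 ± 0.36, adjusted p = 0.0763), Reln (−1.01 ± 0.32, adjusted p = 0.109), Npy (−1.31 ± 0.45, adjusted p = 0.139) and Sst (−1.15 ± 0.44, adjusted p = 0.179) were not called. Nor was Pvalb (1.32 ± 0.42, adjusted p = 0.112). When only the brighter probe sets were fitted, 6 were called lower, namely both of Gad1 and those of Slc32a1, Npy, Cck and Calb2, and 1 higher, that of Pvalb. The shares of all probe sets called in that fit and with 1 array left out are not reported here. The member counts of those fits are therefore no result about the members.

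Calb2 and Reln stood further below the input than below the IgG pulldowns. Their HuD means were 37.2% and 48.4% of the input, and their IgG means 66.8% and 71.9%. For Gad2 the HuD mean was 99.4% of the input and the log2 difference −0.07 ± 0.40.

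Between IgG and input the members went both ways, and no call was made. None of the 15 member probe sets was called in limma's test of IgG against input, nor was any other probe set (0.00%), and without adjustment 1 member probe set, the second of Gad1 (−1.35 ± 0.57), and 7.39% of all had a p under 0.05. The IgG mean was 95.9% of the input for Gad1, 94.0% for Slc32a1, 94.1% for Pvalb and 96.4% for Cck. It was 81.9% for Gad2, 71.9% for Reln and 66.8% for Calb2. For Npy it was 111% and for Sst 142%, with IgG array 1 below the input and IgG array 2 above it in both. The design had 2 arrays against 1 here, and the standard errors of the bright probe sets ran from 0.28 to 0.48.

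**Figure D3:**
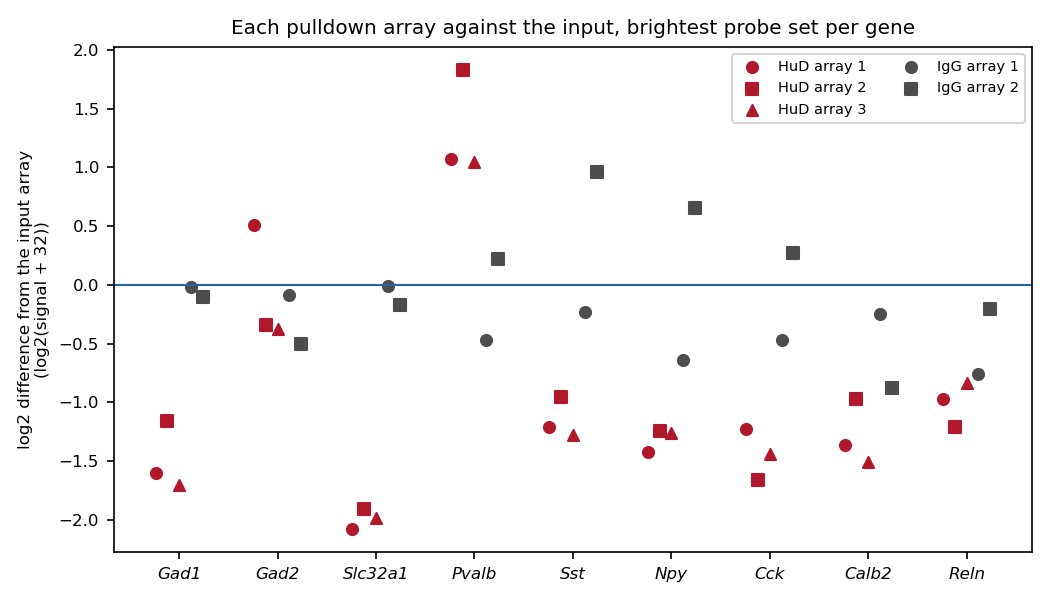
Log2 difference of each pulldown array from the input array for the brightest probe set of each gene (red HuD, grey IgG, symbols by array). The HuD arrays lie between −2.08 and −1.91 for Slc32a1 and between 1.05 and 1.83 for Pvalb. The IgG arrays lie near 0 for Gad1 and Slc32a1 and on both sides of it for Pvalb, Sst, Npy and Cck.

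Other genes of the same cells and pathways gave the setting for these values, each gene read by its brightest probe set in the HuD to IgG comparison. Their counts stand against 14.4% of all probe sets called (8.70% lower and 5.73% higher) and 26.3% of the brighter ones (15.2% and 11.1%). Of all probe sets, 28.9% had an unadjusted limma p under 0.05 in either direction. These shares are over probe sets, and no share over genes is reported here. Among 7 genes of GABA metabolism and transport on the array, 0 were called in either direction by limma, with a median log2 difference of 0.11 (0 higher and 2 lower at an unadjusted p under 0.05). The GABA transaminase gene Abat was at −0.56 ± 0.22, the amino acid transporter gene Slc38a1 at 0.27 ± 0.23 and gephyrin (Gphn), the scaffold of inhibitory synapses, at −0.61 ± 0.27. One of the other probe sets of Gphn was called lower (−0.88 ± 0.22). Whether the change of Slc32a1 differs from theirs was not tested.

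Of 17 other interneuron peptides and markers 1 rose and 2 fell, with a median of −0.27 (1 higher and 5 lower at an unadjusted p under 0.05). Kcnc2, a potassium channel subunit of fast-spiking cells, gave 1992, 2157 and 2114 with HuD, 743 and 857 with IgG and 1007 in the input, a rise of 1.35 ± 0.21 (adjusted p = 0.0075). Like Pvalb it was higher on every HuD array than on any other. Its call was lost without HuD array 1 or HuD array 3 (highest adjusted p = 0.0597). Kcnc1, the related subunit, was at −0.60 ± 0.21 and not called. The enkephalin gene Penk (−0.97 ± 0.25, adjusted p = 0.0366) and Nxph1, a secreted ligand of neurexins (−0.79 ± 0.22, adjusted p = 0.0488), fell, and each call was lost whichever 1 pulldown array was left out, with the title suffix as a block (adjusted p = 0.0606 and 0.0681) and with the arrays centred on the 75th percentile (−0.65 and −0.47) or the median. Nxph1 also lost its call after quantile normalization (−0.56), with the larger pseudocount (−0.56) and with averaged probe sets (−0.28). Other probe sets of Nxph1 were at −0.78 and 0.72 and not called. The peptide genes Tac1 (−1.12 ± 0.38), Vip (−0.68 ± 0.33) and Crh (0.19 ± 0.24) were not called.

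Among 11 interneuron transcription factors 2 rose and 0 fell, with a median of 0.07 (also 2 higher and 0 lower at an unadjusted p under 0.05). Satb1, a chromatin organiser needed for Sst cells to mature, gave 3293, 3323 and 3384 with HuD, 677 and 993 with IgG and 739 in the input. Its HuD signals were nearly equal and far above the others, a rise of 1.98 ± 0.24 (adjusted p = 0.00406) whose call stood whichever 1 pulldown array was left out. A second probe set rose too (1.32 ± 0.20, adjusted p = 0.00716). Maf rose by 0.96 ± 0.26 (adjusted p = 0.0445) on its brightest probe set, while others of its probe sets were at −0.68 and −0.87 and not called, and with all of them averaged it was at −0.07. With 1 array left out its call stood only without IgG array 1 (highest adjusted p otherwise 0.141), and it was lost with the title suffix as a block (adjusted p = 0.0716). Lhx6, which specifies Pvalb and Sst cells, was at −0.45 ± 0.23 and not called.

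Of 13 receptors and effectors of the members' products 1 rose and 1 fell, with a median of −0.27 (2 higher and 3 lower at an unadjusted p under 0.05). Sstr4, a somatostatin receptor, gave 1248, 1079 and 1221 with HuD, 482 and 286 with IgG and 402 in the input, a rise of 1.58 ± 0.26 (adjusted p = 0.00844). Its HuD signals stood above all others, the reverse of Sst itself. The call was lost without HuD array 1 or HuD array 3 (highest adjusted p = 0.0663). A second, dim probe set of Sstr4 was at −0.04 and not called. The other somatostatin receptors were not called: Sstr2 was at −0.61, Sstr3 at −0.85, and the dim Sstr1 and Sstr5 at 0.03 and 0.09. The reelin receptor gene Lrp8 fell by 1.09 ± 0.24 on the log2 scale (adjusted p = 0.0224), a call lost without IgG array 1 or any 1 HuD array (highest adjusted p = 0.0917), after quantile normalization (−0.82, adjusted p = 0.0802) and with averaged probe sets (−0.46, adjusted p = 0.111), while its other probe sets were at −0.25 and −0.03 and not called. The second reelin receptor, Vldlr, was at −0.27 ± 0.22, and the neuropeptide Y receptors Npy1r and Npy2r were at −0.99 ± 0.32 and 0.56 ± 0.25, none of them called.

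Genes of the secretory granule, the compartment that stores and processes peptides such as those of Sst, Npy and Cck, gave 0 rises and 5 falls among 9, with a median of −1.18 (0 higher and 5 lower also at an unadjusted p under 0.05). The granin genes Chga and Chgb fell by 2.09 and 1.18 on the log2 scale (adjusted p = 0.00906 and 0.0203). The peptide precursor gene Vgf fell by 1.72 (adjusted p = 0.00471), its HuD signals of 333, 253 and 302 standing against 931 and 1171 with IgG and 924 in the input. Scg5, the chaperone of a prohormone convertase, fell by 1.86 (adjusted p = 0.00566) and Scg3 by 1.23 (adjusted p = 0.0312). Not every granule gene did so: the carboxypeptidase gene Cpe was at −0.07 ± 0.27, Scg2 at −0.09 ± 0.25 and the amidating enzyme gene Pam at 0.45 ± 0.34. With 75th percentile centring the call of Scg3 was lost (−0.91, adjusted p = 0.0505). The call of Vgf stood whichever 1 pulldown array was left out. That of Scg5 was lost without HuD array 1 and that of Chga without HuD array 1 or 3. Chgb lost its call without IgG array 1 or any 1 HuD array, and Scg3 without IgG array 2 (−0.75) or any 1 HuD array.

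**Figure D4:**
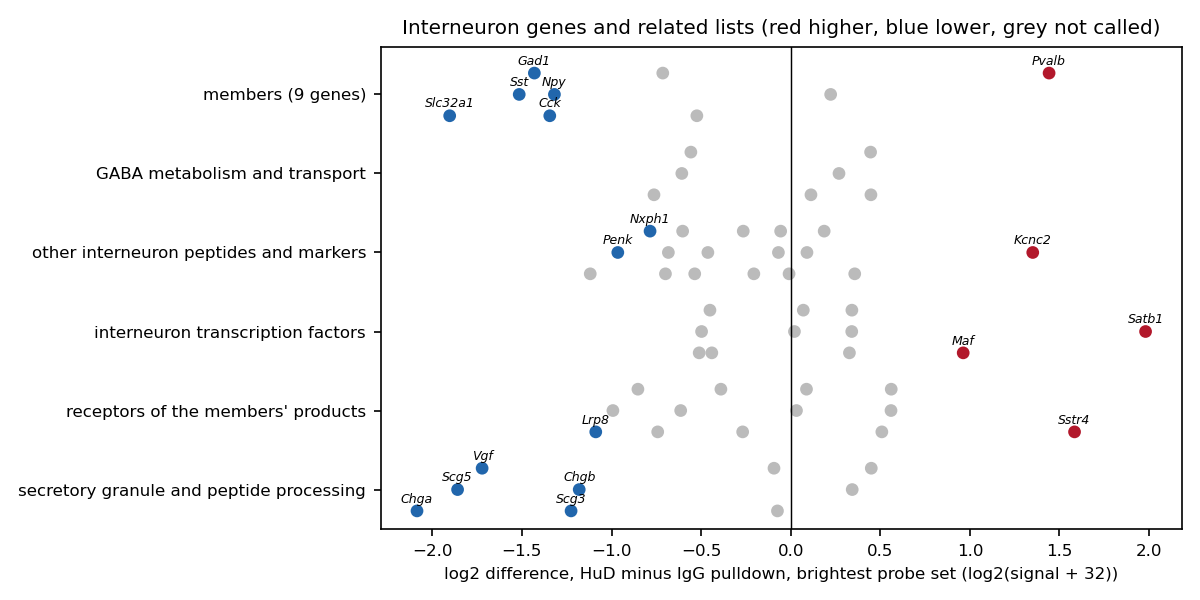
Log2 difference between HuD and IgG pulldowns of the 9 members and of the genes in 5 related lists, 1 point per gene by its brightest probe set, with called genes named. Of the 9 members 5 lie at the left and are called, as are 5 of the 9 granule genes, while Pvalb, Kcnc2, Satb1, Maf and Sstr4 lie at the right.

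For each member the annotated genes with the most similar profile over the 6 arrays were sought among 19706 of the brighter probe sets, by the root mean square distance of centred log2 values. The nearest to Gad1 were Mocs2 (0.046) and Tle5 (0.064), to Slc32a1 Smarcd3 (0.093) and Nt5c (0.12), and to Sst Acp1 (0.084) and Mt2 (0.087). The nearest to Pvalb were Zxda (0.094) and Dda1 (0.11). For Gad2 they were Galm and Ednrb, for Npy Trappc2l and Paics, for Cck Dmac1 and Tenm3, for Calb2 Zswim1 and Trim24, and for Reln Ccnh and Kidins220, at distances of 0.047 to 0.085. These matches, the best of many candidates over 6 arrays, describe these arrays only.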

How the data were processed

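Deposited values were intensities, 1 signal per probe set and array, on a linear scale, made with software not given in the sources used here. On each array the mean without the lowest and highest 2% was 150.001, so the authors had scaled the deposited intensities. Of 45101 probe sets, 64 controls were left out, and 34945 others had 1 gene symbol in the platform annotation, 932 several and 9160 none. Log2(signal + 32) values of all 45037 probe sets, with no filter on low values, were fitted with 1 mean per group (limma 3.58.1, R 4.3.3, eBayes with a mean-variance trend, 3 residual and 5.18 prior degrees of freedom). The fit was also run on simulated data, with an outcome not reported here. In that simulation the spread was shuffled over the probe sets, so it held no mean-variance trend and cannot check that setting. By rule every member probe set is named, with up to 3 called genes of each further list by size of the difference and the 2 nearest genes in profile to each member. The remaining genes were chosen after their values were seen. Some genes of these lists are not reported here. The members and lists were chosen with earlier results of these data known. Array numbers are only names, given in deposit order, and pair nothing. Since the labels name no separate animals behind the arrays, a p-value here covers only array-to-array spread, possibly technical. Precision is limited by having 6 arrays. The alternatives were 3 other scalings, 2 other pseudocounts, a filter, 2 ways to join probe sets, no variance trend, a block, and each pulldown array left out.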

Additional observations from a re-analysis of the deposited data

How the results depend on the processing

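Against IgG, the counts of 5 members lower and 1 higher became 4 lower after quantile normalization, with the larger pseudocount or without the variance trend, 3 lower with averaged probe sets, and ran from 1 to 5 lower and 0 to 1 higher with 1 array left out. With the title suffix as a replicate block they stayed at 5 and 1, while Penk, Nxph1 and Maf lost their calls. Against the input, 2 lower and 0 higher became 1 and 1 with 75th percentile centring, 5 lower with median centring, 6 and 1 over the brighter probe sets and 0 lower with the replicate block, and ran from 0 to 6 lower with 1 array left out. Calls over all probe sets moved too. Against IgG, 3918 lower and 2579 higher became 2555 and 2938 after quantile normalization. They became 2617 and 8624 with 75th percentile centring and 3262 and 3717 with median centring. Against the input, 1444 lower and 1225 higher became 1195 and 1397, 1061 and 3729, and 2863 and 1439 in the same order. Such calls in the other fits are not reported here. Centring on the 75th percentile raised the median log2 difference of all probe sets by 0.32 against IgG and 0.35 against the input, and median centring by 0.15 against IgG. Sign changes touched values that were not called, apart from Maf with averaged probe sets (−0.071), and the causes were not tested. Against IgG, quantile normalization turned Gad2 1421978_at to 0.0062. The 75th percentile turned it to 0.14, Gad1 1416562_at to 0.14 and Slc32a1 1447573_at to 0.30, the last at 0.13 with median centring. Within le1, Slc32a1 1447574_s_at was at −0.069, and within e1_le1 Gad1 1416562_at was at 0.26, Slc32a1 1447573_at at 0.0010 and Reln 1458020_at at −0.067. With 1 array left out, Gad2 1429589_at ran from −0.065 to 0.43, Gad1 1416562_at from −0.83 to 0.47 and Reln 1458020_at from −0.035 to 0.28. Against the input, quantile normalization turned Slc32a1 1447573_at to −0.0039 and Reln 1458020_at to −0.027, median centring to −0.056 and −0.014. The 75th percentile turned Gad2 1429589_at to 0.29 and Gad2 1421978_at to 0.31. The replicate block turned Gad2 1429589_at to 0.38 and Reln 1458020_at to −0.00063. With 1 array left out, Gad2 1421978_at ran from −0.13 to 0.049, Gad2 1429589_at from −0.36 to 0.084, Reln 1458020_at from −0.018 to 0.16 and Slc32a1 1456457_at from −0.031 to 0.33. For IgG against input, quantile normalization turned Gad2 1421978_at to −0.051 and Slc32a1 1447574_s_at to −0.045. Median centring turned them to −0.083 and −0.22, Slc32a1 1447573_at to −0.19 and Npy to −0.21. The replicate block turned Gad2 1429589_at to 0.045, Slc32a1 1447574_s_at to −0.13 and Npy to −0.32. Without 1 IgG array, Slc32a1 1456457_at ran from −0.14 to 0.035, Slc32a1 1447574_s_at from −0.018 to 0.024, Pvalb from −0.47 to 0.22, Cck from −0.47 to 0.27, Reln 1458020_at from −0.23 to 0.089, Sst from −0.23 to 0.96 and Npy from −0.64 to 0.66.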

Other observations

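On the IgG arrays, other peptide genes also differed between the arrays. The log2 difference of IgG array 2 from IgG array 1 was 1.23 for Tac1, which encodes the substance P precursor, and 1.01 for Vip, against 0.39 for Crh, 0.09 for Penk, 0.14 for Pnoc and 0.07 for Cort. Of the brighter probe sets, 4.07% had a difference above 1. Calb2 went the other way (−0.63), as did Gad2 (−0.42), while Reln (0.56) and Pvalb (0.69) were higher on IgG array 2.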
